A study of Mus musculus with 15 samples.

Results

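MiR-192, miR-194 and miR-215 were measured by 3 of the 584 miRNA assays on the TaqMan rodent cards, chosen by name, with any arm suffix and either rodent prefix allowed. The deposited tables name them mmu-miR-192, mmu-miR-194 and mmu-miR-215. All 3 assays lie on card A and fill 1 well each, and no rat assay and no second arm of these miRNAs was found under the same names. The study profiled miRNAs by quantitative RT-PCR in 15 samples of 2 mouse pancreatic tumour lines to ask how α and β cells differ at steady state and how α cells respond to proinflammatory cytokines. αTC1-6 is a glucagonoma line that stands for α cells, and βTC1 is an insulinoma line that stands for β cells. Untreated αTC1-6 were sampled at 24 h and at 48 h, as were αTC1-6 grown with a cocktail of 50 IU/ml IL-1β, 1000 IU/ml TNF-α and 1000 IU/ml IFN-γ, and untreated βTC1 at 24 h, with 3 replicates in each of these 5 groups. The methods describe the replicates as independent biological replicates, but every replicate of a group comes from a single established tumour line, and no cytokine-treated βTC1 sample is among the 15.

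These miRNAs come from a pair of small gene clusters, each of which joins a copy of miR-194 to either miR-192 or miR-215. The clusters are known for high activity in liver, kidney and intestinal epithelium, and for induction by the tumour suppressor p53, after which the miRNAs slow the cell cycle. A mature miRNA finds its target mRNAs mainly through its seed, bases 2 to 8 counted from its 5′ end, so that miRNAs with the same seed are placed in the same family.

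The mature sequences show why miR-192 and miR-215 are grouped together and miR-194 is not. They were taken from RefSeq on the GRCm38.p6 build, are written 5′ to 3′, and carry the seed in capitals. All 3 assay names matched a mature sequence there. The deposited names carry no arm, and the 5p arm is the one these names stand for when no arm is written.

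mmu-miR-192-5p: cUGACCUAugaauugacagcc
mmu-miR-215-5p: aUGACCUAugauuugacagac
mmu-miR-194-5p: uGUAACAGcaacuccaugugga

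MiR-192 and miR-215 share the seed UGACCUA and are the only 2 of 1679 mouse mature miRNAs in the RefSeq table that carry it. Their sequences are identical at 18 of 21 bases and differ by C1A, A12U and C20A, with the miR-192 base first and positions counted from the 5′ end. The seed of miR-194, GUAACAG, occurs in no other mature name of that table.

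The same 3 miRNAs group differently by genome position. Mir192 lies on the plus strand at chr19:6264844-6264932, and Mir194-2 on the same strand at chr19:6264643-6264728, with 115 bases between the hairpins. Neither hairpin falls inside another listed gene, and the nearest genes are Atg2a before Mir194-2 and Gm14963 after Mir192. Mir215 lies on the plus strand at chr1:185313581-185313692 and Mir194-1 at chr1:185313319-185313385, with 195 bases between them. Both are within the span of Iars2, which encodes the mitochondrial isoleucyl-tRNA synthetase, and the next gene is Bpnt1. Mir194-1 and Mir194-2 give the same mature sequence, so the miR-194 assay cannot tell which of its 2 genes its signal came from.

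Levels are given as ΔCt, the cycle at which the assay crossed its threshold minus that of miR-26a in the same sample. A lower ΔCt means more miRNA, and a difference of 1 cycle is a difference of 1 on the log2 scale if every cycle doubles the product. Over the 15 samples miR-26a itself crossed at a Ct of 16.97 to 18.98. The 3 assays can differ in efficiency, so a ΔCt of 1 assay is set against that of another only to ask whether their difference changed between samples. Of the 45 wells of the 3 miRNAs, 42 held a value in the normalized table and 3 were blank. No well was undetermined (no crossing, entered as a Ct of 40) in either table. The 3 blanks were all replicate 1 of miR-192 at 24 h, in untreated αTC1-6, treated αTC1-6 and βTC1. The non-normalized table holds a Ct for each of them, and in the other 42 wells both tables gave the same Ct. Values for the blank wells are therefore given below from the non-normalized table and named as such.

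At steady state, miR-194 was 10.7-fold higher in βTC1 than in αTC1-6, and miR-192 was 7.12-fold higher with a test that narrowly missed the threshold. MiR-215 showed no detectable difference between the lines. MiR-194 and miR-192 thus gave values of like size and direction, whereas miR-192 and miR-215, which share a seed, did not. Both miR-194 and miR-192 have a gene on chromosome 19, but miR-194 also has a gene beside Mir215. Whether gene position has a part in these values was not tested. The samples are RNA of whole cultures, so fewer cells with a miRNA and less of it per cell cannot be told apart.

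MiR-194, which has a gene in each cluster, had ΔCt values of 7.002, 7.43 and 7.61 in replicates 1 to 3 of untreated αTC1-6 at 24 h. In βTC1 its values were 2.90, 4.23 and 4.64. All 3 βTC1 samples were lower in ΔCt, hence higher in miRNA, than all αTC1-6 samples, with a gap of 2.36 cycles between the groups. Untreated αTC1-6 averaged 7.35 ± 0.311 (SD, n = 3), whereas βTC1 averaged 3.92 ± 0.912 (SD, n = 3). On the log2 scale the difference was 3.42 with a standard error of 0.602 and a 95% confidence interval from 1.93 to 4.92 (limma on all assays, Benjamini-Hochberg adjusted p = 0.00554).

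MiR-192, encoded next to Mir194-2, had ΔCt values of 5.82 and 6.66 in replicates 2 and 3 of untreated αTC1-6 and 2.78 and 4.05 in those of βTC1. The blank wells of replicate 1 come to 5.91 in αTC1-6 and 2.13 in βTC1 with the Ct of the non-normalized table. Every βTC1 sample again lay below every αTC1-6 sample in ΔCt, with a gap of 1.78 cycles, whether or not the blank wells were counted. On the 4 values of the normalized table the log2 difference was 2.83 with a standard error of 0.806 and an interval from 0.50 to 5.17, and limma gave an adjusted p of 0.0628. With the blank wells filled the log2 difference was 3.15 and the adjusted p of limma 0.0103. With this reference and fit, the call for miR-192 therefore depends on whether those wells are used. It also passed with them left out under several other references and fits, which are listed with the alternatives below.

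MiR-215, which shares the seed of miR-192 but lies on chromosome 1, crossed the threshold latest of the 3, with Ct values from 29.97 to 32.97 in all 15 samples. Its ΔCt values were 11.98, 14.42 and 12.90 in untreated αTC1-6 at 24 h and 13.63, 12.52 and 13.92 in βTC1. The groups overlapped, since each βTC1 value fell within the αTC1-6 range. The means were 13.1 ± 1.23 (SD, n = 3) and 13.4 ± 0.742 (SD, n = 3), and the log2 difference of -0.26 had an interval from -2.24 to 1.72 (limma adjusted p = 0.827). That interval overlaps the interval of miR-192, which begins at 0.50, though it reaches neither the estimate of miR-194 nor that of miR-192. It leaves room for a level in βTC1 from 0.212 to 3.30 times that of αTC1-6.

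Of the 3 miRNAs, 1 passed the threshold at steady state, and 2 did not overlap between the lines. Over both cards 142 of 480 tested assays passed, which is 29.6%. On card A alone, the card of these miRNAs, 45.2% passed, and 27.8% passed with a higher level in βTC1. Groups without overlap were more common still, at 59.1% of the tested assays of card A. A difference as large as that of miR-194 was not rare: 34.8% of tested assays differed by more in either direction, against 37.5% for miR-192 and 91.7% for miR-215. The median log2 difference of all tested assays was 0.52 in favour of βTC1. Over both cards, 101 of 539 assays passed with the non-normalized table, and 95 of 433 with undetermined wells as missing.

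**Figure D1:**
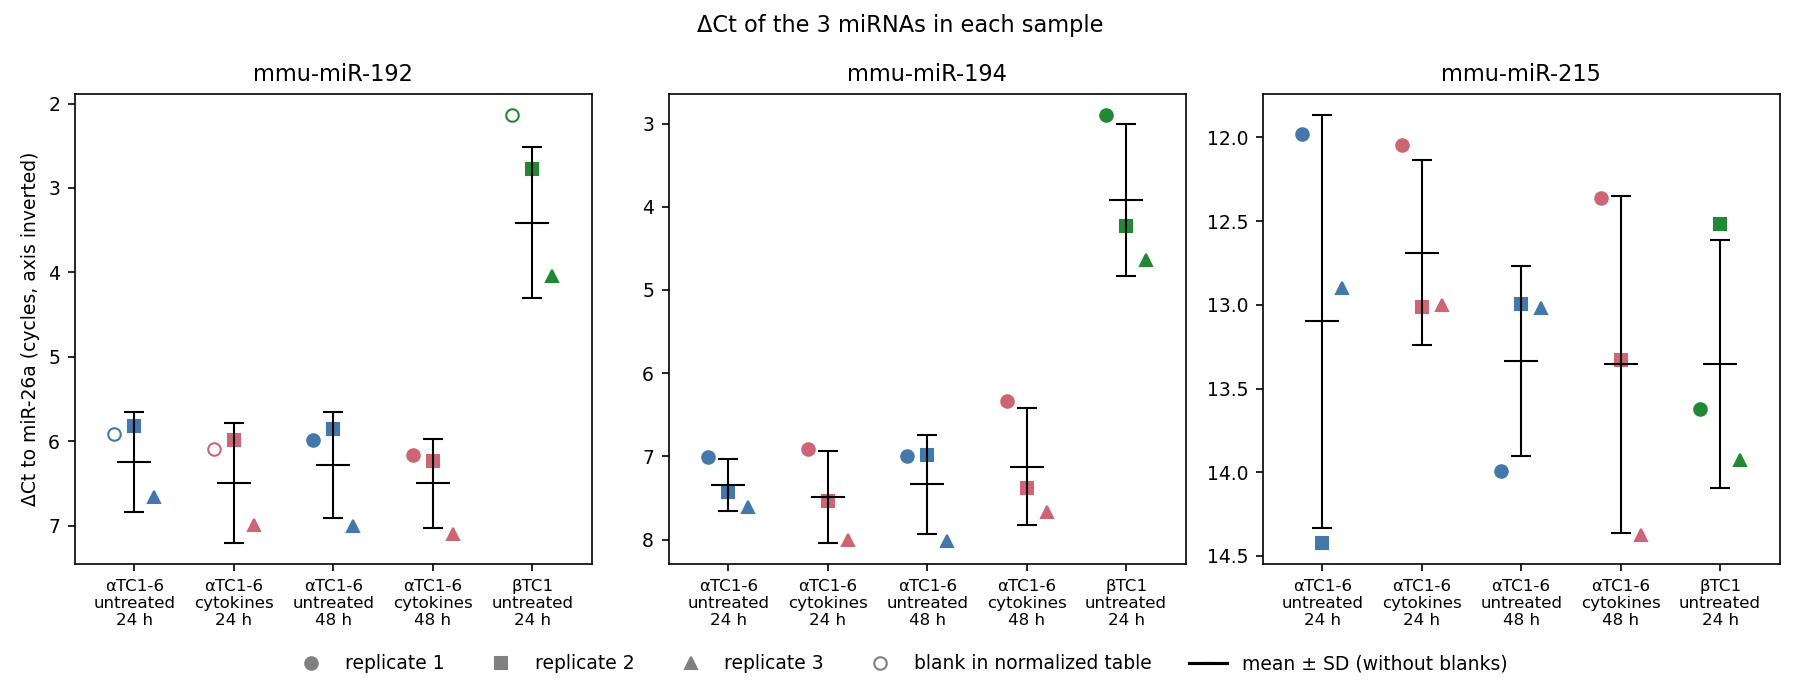
ΔCt to miR-26a in cycles (vertical axes inverted so that more miRNA is up, with a different range in each panel) for each of the 15 samples, by condition. Symbols mark the replicate number, open symbols are wells that are blank in the normalized table and take their Ct from the non-normalized table, and bars are mean ± SD of the other wells: βTC1 stands apart from the 4 αTC1-6 groups for miR-192 and miR-194 and lies among them for miR-215.

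Differences between miRNAs of the same sample do not depend on miR-26a or any other reference, because the reference cancels. Over the 3 pairs of miRNAs and 4 comparisons of groups, 12 such differences were compared. In these, miR-194 stayed close to miR-192 in every group, and its own distance and that of miR-192 to miR-215 were larger in βTC1.

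The ΔCt of miR-215 exceeded that of miR-194 by 4.98, 6.99 and 5.29 cycles in untreated αTC1-6 at 24 h and by 10.73, 8.28 and 9.28 cycles in βTC1. No βTC1 value fell among the 12 αTC1-6 values, which ranged up to 6.999. In αTC1-6 the mean difference was 5.75 ± 1.08 (SD, n = 3), against 9.43 ± 1.23 (SD, n = 3) in βTC1, a shift of 3.68 cycles (exact permutation test, two-sided p = 0.1, the smallest that 3 against 3 samples can give).

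MiR-215 exceeded miR-192, with which it shares its seed, by 8.60 and 6.23 cycles in replicates 2 and 3 of αTC1-6 and by 9.74 and 9.88 cycles in those of βTC1. With the blank wells filled the means were 6.97 ± 1.42 (SD, n = 3) and 10.37 ± 0.9746 (SD, n = 3), and the groups did not overlap either way. The shift was 2.39 cycles without the blank wells (exact permutation p = 0.333, the smallest for 2 against 2 samples) and 3.40 cycles with them (exact permutation p = 0.1, the smallest possible).

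MiR-194 exceeded miR-192 by 1.61 and 0.942 cycles in replicates 2 and 3 of αTC1-6 and by 1.45 and 0.595 cycles in those of βTC1. With the blank wells filled these differences averaged 1.21 ± 0.351 (SD, n = 3) and 0.936 ± 0.454 (SD, n = 3). The groups overlapped, and the shift of -0.28 cycles was smaller than the spread within either group (exact permutation p = 0.5).

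**Figure D2:**
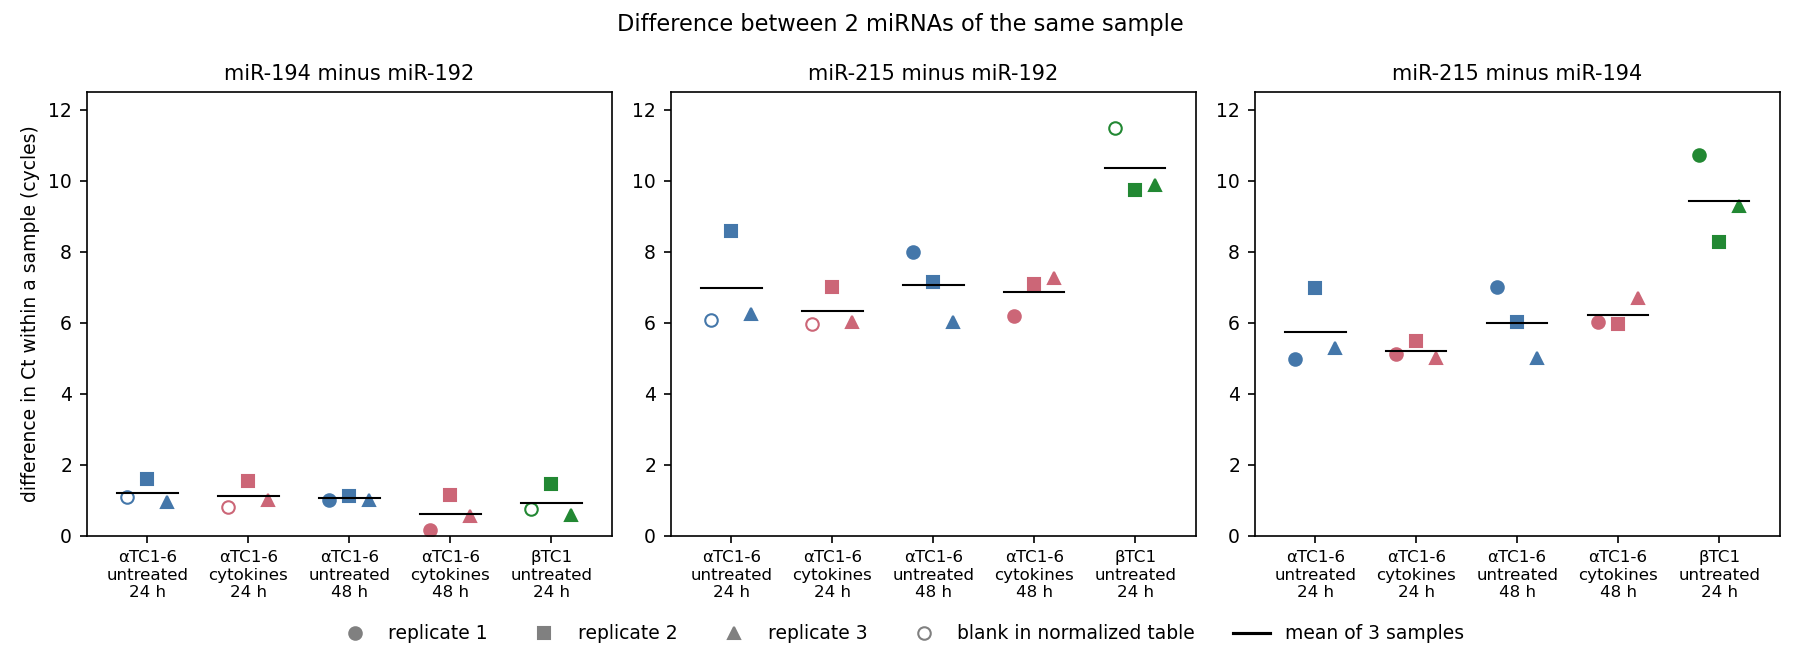
Difference in Ct between 2 of the miRNAs within each sample, in cycles, by condition, with lines at the mean of 3 samples and open symbols where a blank well was filled. The difference of miR-194 to miR-192 stays below 2 cycles in all 15 samples, whereas both differences of miR-215 are larger in each βTC1 sample than in any αTC1-6 sample.

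In αTC1-6 treated with the 3 cytokines for 24 h, none of the miRNAs passed the test. MiR-194 had ΔCt values of 6.92, 7.54 and 8.01, which overlapped the untreated samples, and a log2 difference of -0.14 with an interval from -1.20 to 0.92. MiR-192 stood at 5.99 and 6.99 in replicates 2 and 3, and at 6.09 in the filled well, with a log2 difference of -0.25 and an interval from -2.24 to 1.74. MiR-215 stood at 12.05, 13.01 and 13.00, with a log2 difference of 0.41 and an interval from -1.43 to 2.25. The limma adjusted p was 0.963 for each. Of all 445 tested assays, 1 passed, which is 0.225% (0.394% on card A), and 20 had an unadjusted p under 0.05, so that few assays on the cards passed the threshold at this time. Groups that did not overlap made up 15.7% of the tested assays of card A.

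At 48 h the picture was alike, with all 3 miRNAs overlapping between treated and untreated cells. MiR-194 had ΔCt values of 6.99, 6.99 and 8.02 in untreated and 6.33, 7.38 and 7.67 in treated cells, a log2 difference of 0.21 with an interval from -1.16 to 1.58. MiR-192 had values of 5.99, 5.86 and 7.004 in untreated and 6.16, 6.24 and 7.11 in treated cells, a log2 difference of -0.22 with an interval from -1.47 to 1.03. In both groups replicate 3 held the least miR-192 and the least miR-194. MiR-215 had values of 13.99, 13.00 and 13.02 in untreated and 12.36, 13.33 and 14.38 in treated cells, a log2 difference of -0.02 with an interval from -1.66 to 1.63. The limma adjusted p-values were 0.903, 0.887 and 0.991 in that order. Of 534 tested assays, 3 passed, which is 0.562% (0.877% on card A, where 17.5% of the groups did not overlap), and 60 had an unadjusted p under 0.05. These intervals, and those at 24 h, come from the fit without pairing. With 3 samples a group, changes that lie within them could not be detected by that fit.

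The replicate numbers paired treated with untreated samples, as set out with the methods. With the replicate number as a block in the fit, 0 assays passed at 24 h and 0 at 48 h by limma, with 47 and 121 assays at an unadjusted p under 0.05, and no call of the 3 miRNAs changed. The block moved the standard error of miR-192 from 0.667 to 0.2045 at 24 h and from 0.488 to 0.181 at 48 h. For miR-194 it went from 0.423 to 0.192 and from 0.534 to 0.308. For miR-215 it fell from 0.730 to 0.436 at 24 h but rose from 0.643 to 0.746 at 48 h. In the pairs, the ΔCt of miR-192 was higher, hence its level lower, in the treated sample in 6 of 6, by 0.181 (with both blank wells filled), 0.168 and 0.33 cycles at 24 h and by 0.176, 0.38 and 0.101 cycles at 48 h. With the block the limma adjusted p for miR-192 was 0.633 at 24 h and 0.524 at 48 h. The median of all tested assays was lower in treated cells as well, at -0.15 and -0.51 on the log2 scale, and miR-192 at 48 h turned to 0.21 with each sample centred on its median Ct. The ΔCt of miR-194 was higher in the treated sample in 3 of 6 pairs and that of miR-215 in 4 of 6. How often other assays went 1 way in 6 of 6 pairs was not counted.

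The cytokine effect did not differ detectably between the time points for any of the 3. The effect at 48 h minus that at 24 h was 0.35 for miR-194, 0.03 for miR-192 and -0.43 for miR-215 on the log2 scale, with a limma adjusted p of 0.992 each. Their intervals ran from -1.16 to 1.86, from -1.86 to 1.91 and from -2.67 to 1.82 in that order. Of 477 assays 1 passed this test, which is 0.21% (0.35% on card A).

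Between 24 h and 48 h, untreated αTC1-6 showed no detectable change in the 3 miRNAs. The log2 differences were 0.01 for miR-194, -0.04 for miR-192 and -0.24 for miR-215, and all 3 overlapped between the time points (limma adjusted p = 0.987, 0.987 and 0.929). Their intervals ran from -1.08 to 1.11, from -1.60 to 1.52 and from -2.08 to 1.60 in that order. Of 489 assays 29 passed in this comparison, which is 5.93% (9.12% on card A, where 16.9% of the groups did not overlap). On card A, 304 or more assays per 48 h sample had a Ct in the normalized table, against 276 or fewer at 24 h. Some wells undetermined there held a Ct in the non-normalized table. There were 72 to 95 such wells in each 24 h sample and 8 to 13 in each 48 h sample. The main fit set undetermined wells to a Ct of 40. With the Ct of the non-normalized table, only 2 of 520 assays passed in this comparison. No well of the 3 miRNAs was undetermined at either time.

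Over all 12 αTC1-6 samples, whatever the treatment and time, the ΔCt with blank wells filled ranged from 5.82 to 7.11 for miR-192, from 6.33 to 8.02 for miR-194 and from 11.98 to 14.42 for miR-215. On the same values the means of the 4 αTC1-6 conditions spanned 0.367, 0.362 and 0.667 cycles in that order. The order of the 3 assays by ΔCt was the same in all 15 samples, with miR-192 lowest and miR-215 highest.

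**Figure D3:**
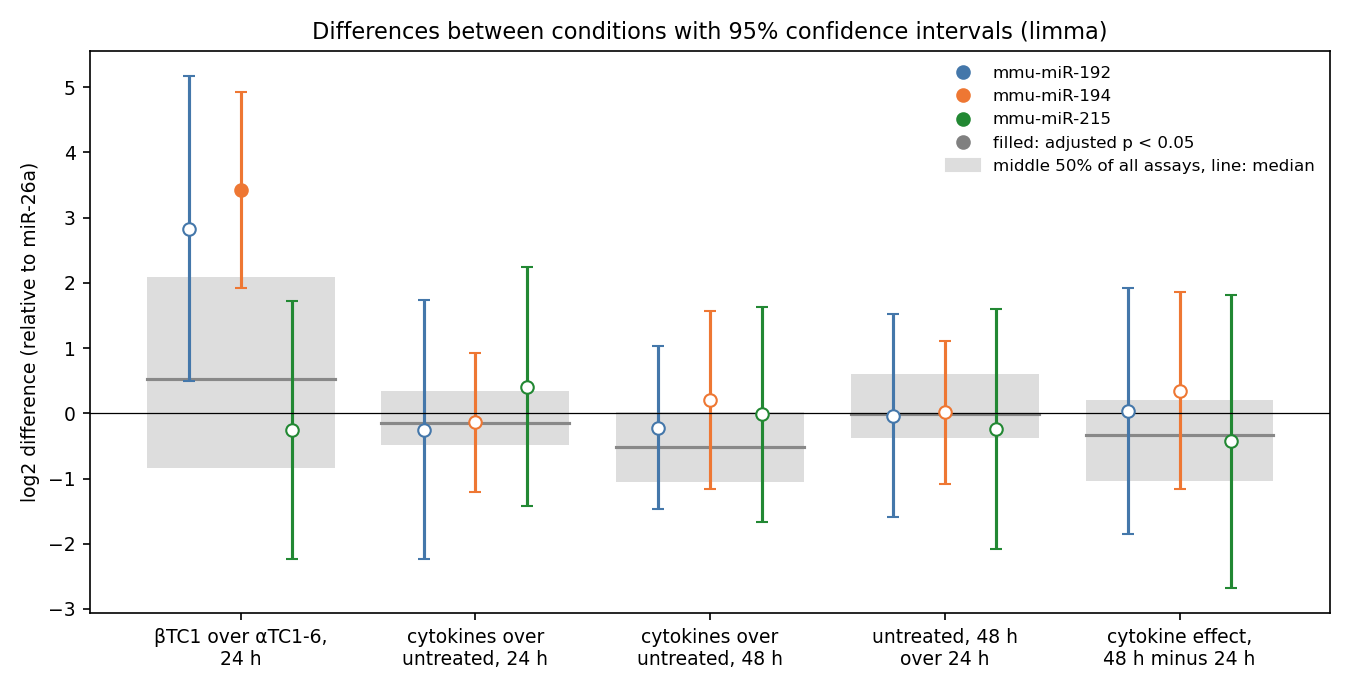
Log2 differences of the 3 miRNAs relative to miR-26a in the 5 comparisons, with 95% confidence intervals from limma and filled points where the adjusted p is under 0.05, over a grey band from the lower to the upper quartile of all tested assays. MiR-194 and miR-192 lie above the band at steady state, and every interval of the other 4 comparisons spans 0.

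Within the αTC1-6 samples, the ΔCt of miR-192 and miR-194 varied together more closely than that of either with miR-215. Pearson's r was 0.692 and Spearman's rho 0.608 between miR-192 and miR-194 over 12 samples with blank wells filled, and r was 0.579 without the 2 samples farthest from the median of miR-192. Between miR-194 and miR-215 r was 0.378 and rho 0.434, and r was 0.34 without the 2 samples farthest from the median of miR-194. Between miR-192 and miR-215 r was 0.169 and rho 0.098. These are descriptions only, since the samples share a cell line, replicate numbers, the card and the miR-26a value of each sample.

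The assays whose ΔCt most resembled that of miR-194 were sought among 276 with a Ct in all 15 samples. By Pearson's r over those samples they were miR-218 (0.969), miR-135a (0.954), miR-126-5p (0.946), miR-465b-5p (0.945) and miR-139-5p (0.926), against a median r of 0.336 over all 276. These values of r span both lines, between which miR-194 differs, so assays chosen in this way tend to differ in the same direction. Each of the 5 was higher in βTC1, by a log2 difference of 7.499, 7.51, 2.39, 5.78 and 6.51 in that order (limma adjusted p of 0.00735 or less each). Because the same samples chose the assays, these tests add no separate support. Within the 12 αTC1-6 samples r stayed at 0.925 for miR-218 and 0.839 for miR-135a but fell to 0.595, 0.152 and 0.146 for the others. No median over all 276 is given for these 12 samples alone. For miR-215 the closest were miR-147 (0.783), miR-136* (0.736), miR-24 (0.733), miR-30d (0.677) and miR-491 (0.653), none of which passed the test between the lines. MiR-192 was not eligible for this search because of its blank wells.

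Other miRNAs that are induced or processed with the help of p53 were taken as a list of miR-34a, miR-34b, miR-34c, miR-143, miR-145 and miR-107, of which 8 assays are on the cards. At steady state, where 29.6% of all tested assays passed, 6 were tested and 1 passed, miR-145, a miRNA of smooth muscle and mesenchyme, with a log2 difference of 1.91 in favour of βTC1 (limma adjusted p = 0.0271). With the Ct of the non-normalized table the same difference had an adjusted p of 0.0525. The median of the list was 0.35, against 0.52 over all tested assays. MiR-34a, the best known direct target of p53, differed by 0.01 on the log2 scale between the lines. Under cytokines it was higher by 1.048 at 24 h and 1.135 at 48 h, with a limma adjusted p of 0.65 and 0.488. The tested assays of the list ranged there from -0.951 to 1.257 and from -1.37 to 1.135, with medians of 0.23 and -0.42. None of the list passed under cytokines at 24 h (6 tested) or 48 h (7 tested). MiR-143 alone of 8 tested was called higher at 48 h than at 24 h in untreated cells, beside 5.93% of all tested assays that passed. In the normalized table miR-143 had a Ct in 0 of 3 untreated samples at 24 h. In the non-normalized table that difference of miR-143 was -0.82 on the log2 scale (limma adjusted p = 0.973).

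A second list held miRNAs of liver and gut epithelium, namely miR-122, miR-141, the miR-200 family members miR-200a, miR-200b, miR-200c and miR-429, miR-148a and miR-802, with 13 assays on the cards. At steady state 10 were tested and 2 passed, both higher in βTC1, beside 29.6% of all tested assays. These were miR-200b, a repressor of the mesenchymal factors Zeb1 and Zeb2, and miR-802. The list median was 2.58, against 0.52 over all tested assays. Neither call stood with the non-normalized table, where miR-200b had a Ct in all 3 untreated αTC1-6 samples and a log2 difference of 1.84 (limma adjusted p = 0.570), and miR-802 differed by -4.71 (adjusted p = 0.618). None of the list passed under cytokines at 24 h (8 tested) or 48 h (13 tested). Untreated αTC1-6 showed 3 of 10 higher at 48 h than at 24 h, miR-122, miR-200a and miR-429, beside 5.93% of all tested assays that passed. In the normalized table each of them had a Ct in 0 of 3 samples at 24 h, so these calls rest on wells set to a Ct of 40. None of them passed in the non-normalized table either. MiR-192 and miR-194 had a Ct in all samples in that table, so their differences do not rest on undetermined wells.

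The islet miRNAs miR-375 and miR-7, counted over 5 assays, were present in both lines, and none passed in any comparison. MiR-375, a regulator of insulin secretion and β cell mass, had a Ct between 13.42 and 15.98 in all 15 samples. Markers of exocrine acinar cells differed between the lines along with miR-192 and miR-194. MiR-216a, miR-216b and miR-217 each had a Ct in 3 of 3 βTC1 samples, from 21.58 to 26.98. In the normalized table they had none in untreated αTC1-6 at 24 h, and all 3 of 3 were called higher in βTC1. Of all tested assays of card A, 27.8% were called higher in βTC1. In the non-normalized table each had a Ct in 1 of 3 of those αTC1-6 samples, at 19.9, 31.9 and 31.5, and miR-216b and miR-217 still passed (limma adjusted p = 0.018 and 0.0217), while miR-216a did not (adjusted p = 0.447). The endothelial miR-126-3p was also higher in βTC1, by a log2 difference of 2.39. So were 2 of 5 tested assays of muscle miRNAs, mmu-miR-133a and rno-miR-1*, whereas 0 of 2 blood markers passed by limma. These counts stand beside the 29.6% of all tested assays that passed at steady state. In the normalized table miR-133a had a Ct in 2 of 3 untreated αTC1-6 samples at 24 h and rno-miR-1* in 0 of 3, so both calls include wells set to a Ct of 40. In the non-normalized table miR-133a differed by 2.98 (limma adjusted p = 0.0401) and rno-miR-1* by 1.85 (adjusted p = 0.894). The hepatocyte marker miR-122 had a Ct of 26.85 or more in every βTC1 sample of the non-normalized table. It had a Ct in 2 of 3 βTC1 samples of the normalized table, at 29.01 and 29.09. Whether these markers have a part in the difference of miR-192 and miR-194 was not tested.

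The steady state values of miR-194 and miR-192 kept their direction under each other reference and setting. With each sample centred on its median Ct, miR-194 was higher in βTC1 by 3.12 and miR-192 by 2.47 on the log2 scale (limma adjusted p = 0.0185 for miR-192). Against U6 and small nucleolar RNAs miR-192 differed by 2.78 (adjusted p = 0.0367). MiR-215 lay below 0 under all of these references and turned to a positive difference of up to 0.30 when single replicates were left out.

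**Figure D4:**
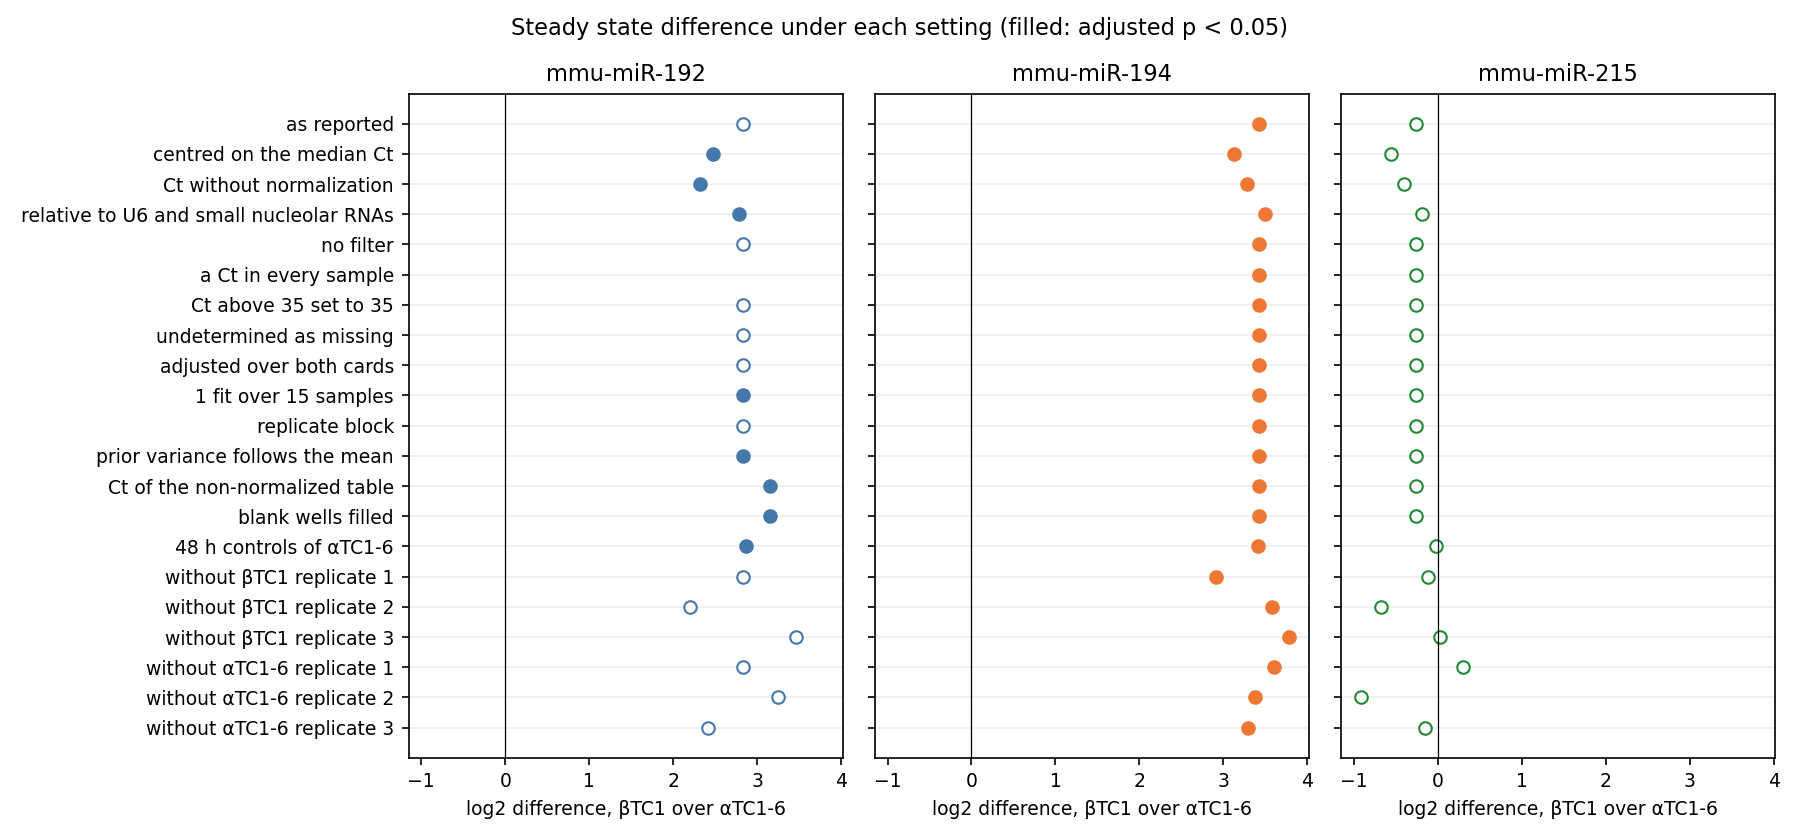
Log2 difference of each miRNA between βTC1 and αTC1-6 (above 0, higher in βTC1) under each setting, with filled points where the limma adjusted p is under 0.05. MiR-194 is filled under every setting, miR-192 is above 0 under all that could be fitted and filled under 8, and miR-215 is filled under none.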

How the data were processed

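MiRNA levels were measured on a card A and a card B of the TaqMan rodent set after Megaplex reverse transcription and preamplification of total RNA. The deposited table without normalization holds raw Ct, on a cycle scale, and the normalized table holds ΔCt, a log2 scale, which the authors computed by subtracting the Ct of miR-26a. The same deposited table gives relative quantities, a linear ratio to miR-26a equal to 2 to the power of minus ΔCt. The methods name several reference genes, whereas the deposited values are relative to miR-26a only. Another deposited table holds the authors' own fold changes between samples and was not used. No sample column was left out of the tables used.

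For each of 5 comparisons, minus ΔCt of all miRNA assays in the groups compared was modelled with limma 3.58.1 (R 4.3.3). Undetermined wells were set to a Ct of 40, blank wells were left out, duplicate wells were averaged, and assays undetermined in more samples than not were dropped. Two-sided tests were used with Benjamini-Hochberg adjustment within each card at 0.05. The fit was tested on simulated data. Within-sample differences were tested by exact permutation in Python 3.11.15 with scipy 1.17.1, numpy 2.4.6 and pandas 2.3.3. Sequences and positions came from RefSeq tables of GRCm38.p6. Alternatives were 3 other references, other treatment of low and undetermined wells, adjustment over both cards, 1 fit over 15 samples, a replicate block, a variance trend in eBayes, the non-normalized table, the 48 h controls at steady state, and leaving out each replicate. Filling the blank wells was added after the data were seen.

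Over 278 assays with a Ct in every sample, treated and untreated samples with the same replicate number deviated together (r from 0.276 to 0.476 at 24 h and from 0.259 to 0.443 at 48 h), so the numbers were taken as pairs there. The numbers of the array samples limit the precision. MiRNAs named are the 3 assays, the 5 assays most like each eligible one by Pearson's r, and list members past the threshold, with miR-34a added after its value was seen. The 3 miRNAs, the lists and the markers were chosen with earlier results of these data known.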

Additional observations from a re-analysis of the deposited data

How the results depend on the processing

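MiR-194 stayed higher in βTC1 under all 14 alternatives (log2 3.12 to 3.50) and with each replicate left out (2.91 to 3.78), always with a limma adjusted p under 0.05. MiR-192 stayed higher under 13 alternatives and passed under 8 of them: centring on the median (2.47), no normalization (2.31), U6 and small nucleolar RNAs (2.78), 1 fit over 15 samples (2.83), a variance trend (2.83), the non-normalized table (3.15), blank wells filled (3.15) and the 48 h controls (2.87). Leaving out a replicate gave 2.20 to 3.46 with an adjusted p from 0.0663 to 0.251, where a group left with 1 value was assumed to vary like the other. The filter for a Ct in every sample gave miR-192 no value. MiR-215 gave -0.92 to 0.30 with replicates left out.

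Values near 0 changed sign without passing. At 24 h under cytokines miR-194 was 0.011 with median centring. At 48 h miR-192 was 0.21 with median centring and 0.33 against U6 and small nucleolar RNAs, and miR-215 was 0.41, 0.068 without normalization and 0.53. Against U6 and small nucleolar RNAs miR-192 was 0.20 at 48 h over 24 h and the effect difference of miR-215 was 0.16. These scalings also moved the median of all assays, at 48 h from -0.51 to -0.08 with median centring and 0.04 against U6 and small nucleolar RNAs. With replicates left out, miR-192, miR-194 and miR-215 ranged from -0.75 to 0.25, -0.43 to 0.12 and -0.25 to 0.97 under cytokines at 24 h, from -0.58 to 0.082, -0.19 to 0.48 and -0.51 to 0.49 at 48 h, from -0.46 to 0.38, -0.16 to 0.36 and -0.90 to 0.32 for 48 h over 24 h, and from -0.47 to 0.53, -0.049 to 0.63 and -0.99 to 0.23 for the effect difference. MiR-194 minus miR-192 for 48 h over 24 h ranged from -0.56 to 0.11 cycles.

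Counts of assays called also moved. At steady state 142 of 480 passed, against 101 of 539 with the non-normalized table and 95 of 433 with undetermined wells as missing. The count was 81 with a Ct required in every sample and 94 to 110 with a replicate left out. At 24 h under cytokines 0 passed with a Ct in every sample, a cap at 35, undetermined wells as missing, the replicate block, the variance trend or the non-normalized table, 2 in 1 fit over 15 samples, and 0 to 2 with a replicate left out. At 48 h 1 passed with undetermined wells as missing, 5 in 1 fit over 15 samples, 0 with the replicate block, and 0 to 5 with a replicate left out. For 48 h over 24 h 1 passed with a Ct in every sample, 2 with undetermined wells as missing, 2 with the non-normalized table, and 0 to 30 with a replicate left out. For the effect difference 2 passed with median centring, 2 without normalization, 3 without a filter, 0 with a Ct in every sample, a cap at 35, undetermined wells as missing or the non-normalized table, and 1 to 4 with a replicate left out. The cause was not tested. At steady state, samples with the same replicate number deviated together only weakly (r from 0.0642 to 0.0945, against 0.0082 or less for other numbers). For 48 h over 24 h the values were mixed. There r was -0.0447, 0.238 and 0.0733 for the same number, against at most 0.196, -0.0966 and 0.149 for other numbers. The numbers were not taken as pairs in these 2 comparisons.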

Other observations

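In the non-normalized table, Ct was not spread evenly between whole cycles. Of the 45 Ct values of miR-192, miR-194 and miR-215, 21 (46.7%) had a fractional part of 0.9 or more, where an even spread would give 10%. The share was 38.7% of 5035 Ct values on card A and 30.5% of 4948 on card B, so these miRNAs are not alone in it. Among the 3 miRNAs it was 4 of 9 values in untreated and 7 of 9 in treated αTC1-6 at 24 h, 8 of 9 in untreated and 1 of 9 in treated αTC1-6 at 48 h, and 1 of 9 in βTC1. Of the 15 Ct values of miR-26a, 6 lay in that range. The differences within αTC1-6 discussed above are smaller than 1 cycle, and the part of this unevenness in them was not tested.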
